A study of Mus musculus with 18 samples.

Results

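The 36 interferon-stimulated genes described here were named by symbol, as genes that interferon is known to induce, and were followed in 18 mouse mammary tumors. All 36 were found among the 57126 genes of the count table, of which 45551 had a count in at least 1 tumor. They comprise 4 IFIT genes (Ifit1, Ifit2, Ifit3, Ifit3b), 5 OAS genes (Oas1a, Oas2, Oas3, Oasl1, Oasl2), 3 genes of the ISG15 pathway (Isg15, Usp18, Herc6) and 4 GTPases (Mx1, Mx2, Gbp2, Gbp3). The others are 4 transcription factors (Irf1, Irf7, Irf9, Stat2), 4 nucleic acid sensors and kinases (Ifih1, Dhx58, Zbp1, Eif2ak2) and 12 further effectors (Isg20, Rsad2, Cmpk2, Bst2, Ifitm3, Trim30a, Parp14, Xaf1, Rtp4, Ifi44, Ifi44l, Ifi27l2a). The set varied more from tumor to tumor than most genes did, tumors with scores above and below the mean were found in every genotype, and no member passed the adjusted threshold between genotypes in edgeR's test. The exception in pattern was Ifi44l, which was close to absent in all MaP -/- tumors and was counted in every MaP R245W/- tumor.

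Interferons are secreted proteins that cells release after sensing foreign or misplaced nucleic acid. Type I and type III interferons act through receptors and Janus kinases to activate a complex that contains Stat2 and Irf9 and binds interferon-stimulated response elements (ISRE). Type II interferon acts mainly through gamma-activated sites (GAS). The induced proteins degrade, bind or trap viral RNA and particles, and several of them feed back on the pathway. In mammary tumors the same genes can be expressed by the carcinoma cells, by stroma and by leukocytes.

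Bulk RNA was measured in 7 MaP R172H/- tumors, 5 MaP R245W/- tumors and 6 MaP -/- tumors. All mice were females of a BALB/c by C57BL6/J F1 background in which an adenovirus carrying Cre recombinase (Ad-Cre) was injected into mammary ducts. In the recombined epithelial cells, MaP R172H/- and MaP R245W/- tumors express the p53 missense mutant from 1 Trp53 allele and lack the other allele, while MaP -/- tumors lack both. Stroma and immune cells keep wild-type Trp53. The 6 MaP -/- tumors came from 4 mice, of which JM663 and JM833 gave a left (T1) and a right (T2) tumor each. A Rosa26LSL-TdTomato/+ reporter allele was present in 3 of 7 MaP R172H/-, 3 of 5 MaP R245W/- and 0 of 6 MaP -/- tumors. Tumors were collected when the mice reached their tumor burden, so age at collection was not fixed. The labels name JM779-T1 and JM836-T1, while the published list of sequenced tumors gives the other side for these mice. The count column of JM779 carries an R, as does that of JM663-T2, and the column of JM836 carries no side. The labels of JM779 thus conflict, and the side of the JM836 library is uncertain. The MaP R172H/- libraries were read on a HiSeq instrument and all others on a NovaSeq instrument. The paper classes the MaP R172H/- tumors as nonmetaplastic adenocarcinomas of luminal B or HER2-enriched subtype. It classes all others as triple-negative (lacking Esr1, Pgr and Erbb2), with metaplastic and nonmetaplastic tumors in both groups. Instrument, subtype and genotype thus cannot be told apart when MaP R172H/- tumors are compared with either other group.

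Total counts were between 23113578 and 37365062 per tumor. Levels are given in CPM, counts scaled to a common library size, with library sizes adjusted by the trimmed mean of M-values (TMM). Trp53 itself did not separate the groups completely. It lay between 9.43 and 21.6 CPM in the MaP -/- tumors. It lay between 41.4 and 50.3 CPM in 6 MaP R172H/- tumors, and the library labelled YZ11 of that group had 10.8 CPM. In the MaP R245W/- group it was 11.4 CPM in JM1233, 27.1 in JM1564, 9.09 in RM0014, 27.6 in JM1126 and 59.0 in JM1133. YZ11, JM1233 and RM0014 were thus in or below the range of the MaP -/- tumors, and their group rests on the label alone. The score differences, the medians over all members and the counts of members called are given with and without them. So are some log2 fold changes of single members. Medians by role and the remaining log2 fold changes are not, and may also move. The p-values below measure the spread between tumors, and the MaP -/- tumors of 1 mouse share a source. In bulk tumors, fewer cells of a type and less RNA per cell cannot be told apart.

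The motifs that interferon signalling uses were looked for in the 300 bases around RefSeq transcription starts (GRCm38.p6, 250 bases before to 50 after), which were at hand for 27 of the 36 members. The ISRE was searched as GAAA, 2 bases of any kind and GAAA, and the GAS as TTC, 3 bases of any kind and GAA, each on both strands. ISRE letters were present for 15 of 27 members (55.6%) and in 16 of their 34 promoters (47.1%), against 1131 of 32851 promoters of all genes (3.44%). GAS letters were present for 7 of 27 members (25.9%) and in 7 of their 34 promoters (20.6%), against 2726 of 32851 (8.3%), and 4 members had both and 9 had neither. Dhx58, Ifi27l2a, Mx1, Mx2, Oas2, Parp14, Rtp4, Usp18 and Zbp1 had no entry. The 180 bases upstream of the start are printed for 7 members, with the ISRE letters in capitals for Ifit1, Isg15, Oas3 and Gbp2 and the GAS letters in capitals for Irf1, whose start with a match is shown of 2 starts in the table. Ifit1, Isg15, Oas3 and Gbp2 stand for the IFIT, ISG15, OAS and GTPase groups. Irf1 is shown because its levels followed the other members less closely, and Ifi44 and Ifi44l because these neighbours differed in pattern. The last pair had no match of either motif in these bases, and a match or its absence says only whether these letters are in the window.
Ifit1 (chr19:34640709-34640888, plus strand): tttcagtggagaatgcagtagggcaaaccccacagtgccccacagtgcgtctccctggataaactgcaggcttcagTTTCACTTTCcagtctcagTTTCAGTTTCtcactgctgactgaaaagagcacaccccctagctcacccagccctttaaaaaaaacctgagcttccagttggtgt
Isg15 (chr4:156200819-156200998, minus strand): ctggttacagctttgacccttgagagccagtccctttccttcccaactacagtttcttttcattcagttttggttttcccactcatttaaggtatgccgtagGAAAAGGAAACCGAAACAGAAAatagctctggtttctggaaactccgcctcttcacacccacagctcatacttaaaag
Oas3 (chr5:120777660-120777839, minus strand): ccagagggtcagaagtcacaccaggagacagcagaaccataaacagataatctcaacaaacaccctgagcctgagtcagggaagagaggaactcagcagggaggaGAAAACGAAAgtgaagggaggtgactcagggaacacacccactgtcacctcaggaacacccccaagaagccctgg
Gbp2 (chr3:142620483-142620662, plus strand): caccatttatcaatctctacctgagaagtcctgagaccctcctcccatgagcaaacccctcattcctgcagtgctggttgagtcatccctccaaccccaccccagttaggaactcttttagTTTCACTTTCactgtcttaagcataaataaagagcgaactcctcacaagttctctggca
Irf1 (chr11:53769834-53770013, plus strand): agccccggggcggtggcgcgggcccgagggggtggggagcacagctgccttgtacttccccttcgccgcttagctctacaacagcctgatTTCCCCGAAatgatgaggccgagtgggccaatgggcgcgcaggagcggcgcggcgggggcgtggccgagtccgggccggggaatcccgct
Ifi44 (chr3:151749911-151750090, minus strand): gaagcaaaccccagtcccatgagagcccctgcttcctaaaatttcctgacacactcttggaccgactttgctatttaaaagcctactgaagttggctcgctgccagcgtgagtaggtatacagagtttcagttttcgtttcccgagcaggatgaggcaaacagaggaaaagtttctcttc
Ifi44l (chr3:151762892-151763071, minus strand): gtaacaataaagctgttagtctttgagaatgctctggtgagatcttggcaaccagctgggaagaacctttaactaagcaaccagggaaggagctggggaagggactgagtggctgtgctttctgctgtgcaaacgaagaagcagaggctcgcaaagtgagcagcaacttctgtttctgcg

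To describe the set in each tumor, a score was taken as the mean over the 36 members of the log2 CPM (prior count 2), each gene centred on its mean over the 18 tumors. The score was highest in the library labelled YZ11 (1.64, MaP R172H/-), in JM1133 (1.51, MaP R245W/-), in JM663-T1 (1.32, MaP -/-) and in YZ6 (1.22, MaP R172H/-). It was lowest in YZ7 (-1.79, MaP R172H/-), JM1126 (-1.58, MaP R245W/-) and JM1233 (-1.33, MaP R245W/-). By label, the highest 3 tumors were thus of 3 genotypes, and the lowest tumor shared its genotype with the highest. That highest tumor was YZ11, whose genotype rests on the label alone. Between these ends, YZ10 had 0.65, YZ3 0.35, YZ2 -0.14 and YZ4 -0.17 in the MaP R172H/- group, and RM0014 had -0.17 and JM1564 -0.73 in the MaP R245W/- group. In the MaP -/- group, JM663-T2 had 0.57, JM833-T1 0.35, JM833-T2 -0.28, JM836-T1 -0.65 and JM779-T1 -0.78.

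**Figure D1:**
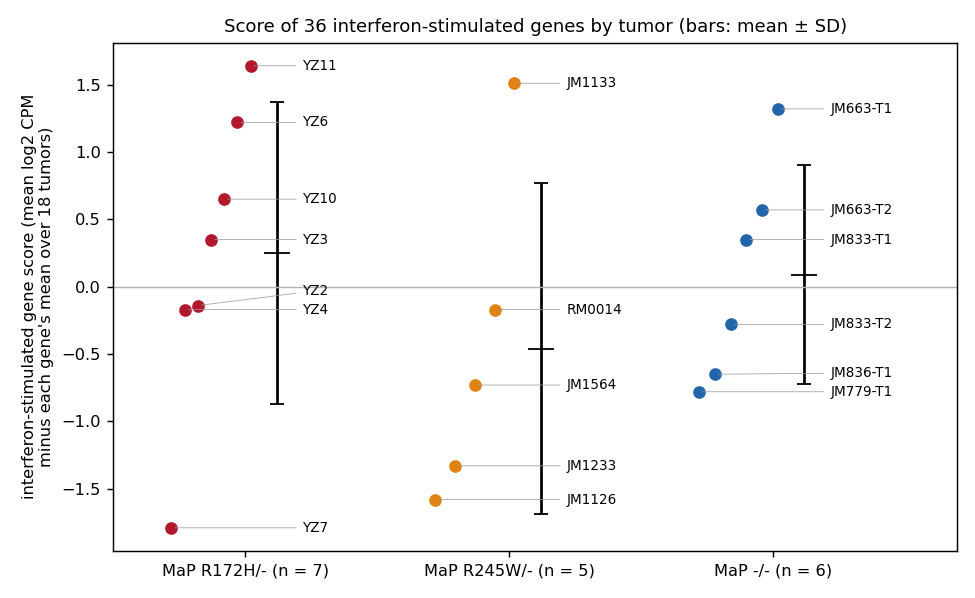
Interferon-stimulated gene score (mean centred log2 CPM over 36 members) of each of the 18 tumors, by genotype, with group means and SD. The 3 groups overlap, with a range of 3.43 in the 7 MaP R172H/- tumors, 3.1 in the 5 MaP R245W/- tumors and 2.1 in the 6 MaP -/- tumors.

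The group means of the score were 0.25 ± 1.12 in MaP R172H/- tumors (SD, n = 7), -0.46 ± 1.23 in MaP R245W/- tumors (SD, n = 5) and 0.09 ± 0.81 in MaP -/- tumors (SD, n = 6). The differences of 0.16 between MaP R172H/- and MaP -/-, -0.55 between MaP R245W/- and MaP -/-, and 0.71 between the mutants were each smaller than the SD within the mutant groups. Ifi44l counts in this score, and it lay above its mean in every MaP R245W/- tumor and below it in every MaP -/- tumor. Under 8 other settings the differences ran from -0.07 to 0.38, from -0.75 to -0.35 and from 0.29 to 0.85. These settings included the score without Ifi44l and a score with each member divided by its SD. The split into the 3 labelled groups, which instrument and subtype partly follow, accounted for 8.43% of the variance of the score. For the median member this split accounted for 11.7% of the variance of log2 CPM, against 17.8% for the median of 22481 genes. The members themselves varied widely, with a median SD of 1.23 on the log2 scale over the 18 tumors against 0.644 for all genes, and a median range of 4.42 against 2.4. These counts describe the members and are no test of the set.

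The members varied together across tumors. The median Pearson correlation of log2 CPM over the 630 pairs of members was 0.859 (n = 18 tumors, which share library depth and composition), and 34 pairs were below 0. For 24 of 36 members the correlation with the mean of the other members exceeded 0.9, led by Oas1a (0.984) and Ifit1 (0.98). The closest pairs were Ifit3 with Ifit3b (0.987), Ifit1 with Usp18 (0.984) and Irf7 with Ifi44 (0.982). Ifit3 and Ifit3b are near copies, as are several Oas, Gbp and Trim30 genes, and the counting may have shared reads among such copies, so their single values are uncertain. The first principal component of the 36 members held 72.4% of their variance and the second 16%. Ifi44l (-0.194), Ifi27l2a (0.503) and Irf1 (0.528) followed the other members least.

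**Figure D2:**
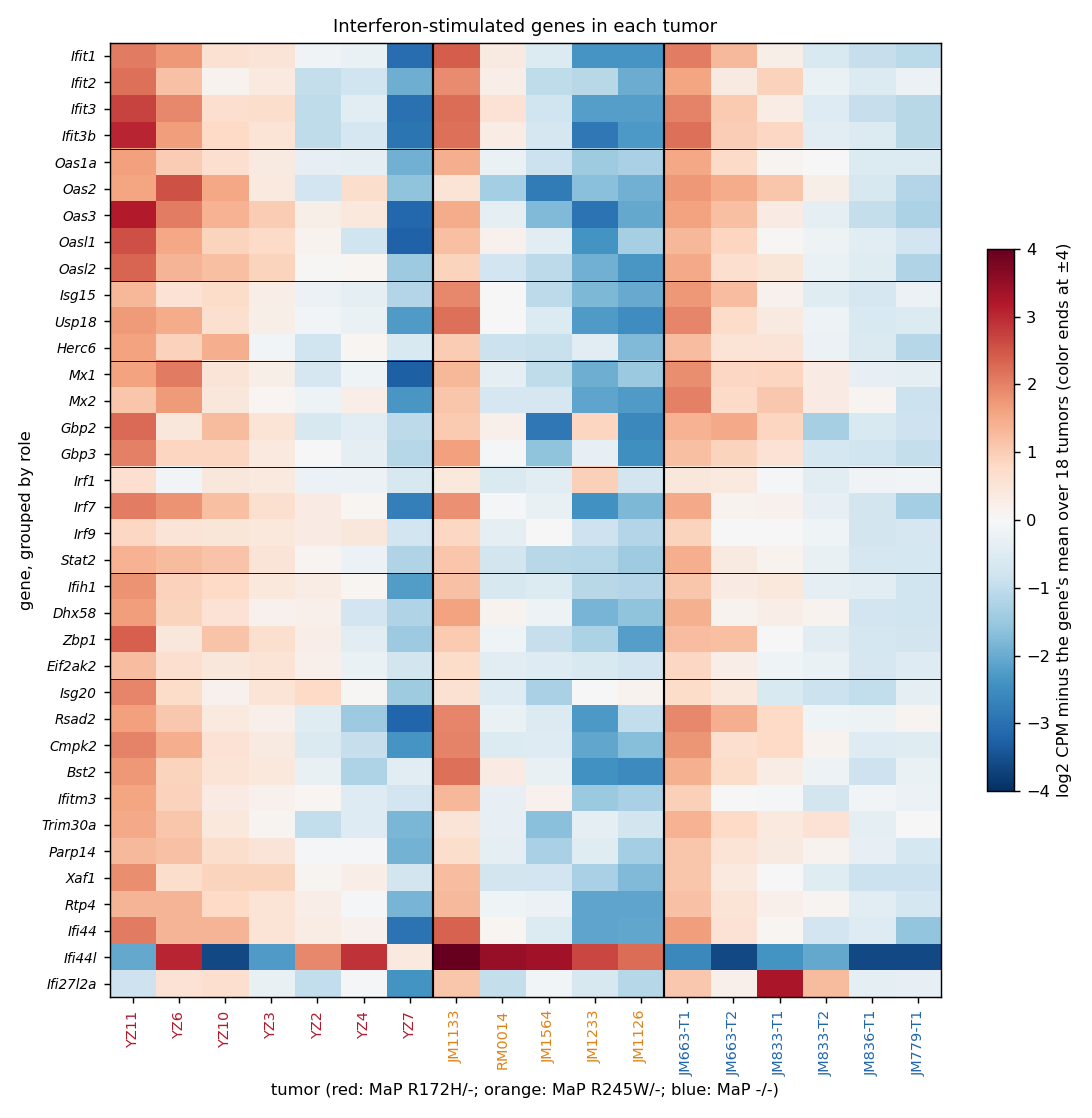
Log2 CPM of each of the 36 members (rows, by role), centred on the gene's mean over the 18 tumors (columns, by genotype). YZ11, JM1133, JM663-T1 and YZ6 are high and YZ7, JM1126 and JM1233 low across most roles, while Ifi44l follows its own pattern.

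A few tumors carried most of the highest and lowest values. YZ11 was the highest of 18 tumors for 21 members, JM1133 for 8, JM663-T1 for 3 and YZ6 for 2. YZ7 was the lowest for 17 members and JM1126 for 14. Tumors of the same mouse also differed. In mouse JM663 the left tumor exceeded the right for 35 of 36 members, by 0.74 in the score and by up to 1.39 on the log2 scale for Irf7. In mouse JM833 the left tumor exceeded the right for 34 of 36 members, by 0.63 in the score and by up to 2.19 for Gbp2.

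The IFIT proteins bind foreign RNA and block its translation. Ifit1 ranged from 7.879 CPM in YZ7 over a median of 93.32 to 280.2 in YZ11 among the MaP R172H/- tumors. In the MaP R245W/- tumors it was 12.66 in JM1233, 45.16 in JM1564, 84.33 in RM0014, 12.89 in JM1126 and 353.0 in JM1133. In the MaP -/- tumors it ranged from 31.42 over a median of 60.61 to 270.9 in JM663-T1. Each group held at least 1 tumor above 270 CPM, and the groups overlapped. The median log2 fold change of the 4 IFIT genes was 0.32 in MaP R172H/- against MaP -/- tumors, -0.14 in MaP R245W/- against MaP -/- tumors and 0.44 between the mutants. YZ11 had the highest level of all 4 IFIT genes in its group, and these medians were not computed without it. Without YZ11 the median over all members tested in MaP R172H/- against MaP -/- tumors was -0.04.

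The OAS proteins sense double-stranded RNA, and the active synthetases make oligoadenylates that switch on RNase L. Of the 7 roles, this family had the largest median difference between the mutants with all tumors, a log2 fold change of 1.58. The family median was not computed without YZ11, JM1233 and RM0014. Without these, Oas3 and Oasl2 were at 0.77 and 0.86, while Oas2 was at or above 1.77 under all 8 other settings. Oas2 (GRCm39 chr5:120868398-120887933, minus strand) ranged from 11.75 CPM in YZ7 over a median of 59.27 to 213.2 in YZ6 among the MaP R172H/- tumors. It was 11.25 in JM1233, 5.193 in JM1564, 14.11 in RM0014, 9.53 in JM1126 and 52.88 in JM1133. It ranged from 15.97 in JM779-T1 over a median of 60.29 to 121.4 in JM663-T1 among the MaP -/- tumors. The 4 lowest MaP R245W/- tumors were below every MaP -/- tumor, and JM1133 lay among them. The log2 fold change was 2.12 ± 0.738 (SE) in MaP R172H/- against MaP R245W/- tumors, and it missed the threshold (edgeR quasi-likelihood test, Benjamini-Hochberg adjusted p = 0.079, the lowest of any member in that comparison). It was -1.79 ± 0.682 in MaP R245W/- against MaP -/- tumors (edgeR quasi-likelihood test, Benjamini-Hochberg adjusted p = 0.375).

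Oas3, its neighbour on chromosome 5, ranged from 4.226 CPM in YZ7 over a median of 77.29 to 342.0 in YZ11 among the MaP R172H/- tumors. It was 4.776 in JM1233, 11.03 in JM1564, 28.53 in RM0014, 9.083 in JM1126 and 106.7 in JM1133, and from 15.52 over 38.48 to 116.3 in the MaP -/- tumors. All 3 groups overlapped, with JM1133 above most tumors of the other groups and YZ7 below every tumor. The log2 fold change was 1.09 ± 0.737 against MaP -/- tumors and 1.79 ± 0.889 between the mutants (edgeR, Benjamini-Hochberg adjusted p = 0.382 and 0.215). The first of these was 0.45 without YZ11. The second was 1.17 without YZ11, 3.04 without JM1133 and 0.77 without the 3 tumors in doubt. Oasl1 ranged from 3.609 CPM over 59.8 to 210.7 in MaP R172H/- tumors, was 6.657, 26.24, 38.94, 13.88 and 81.13 in JM1233, JM1564, RM0014, JM1126 and JM1133, and ranged from 20.4 over 33.27 to 88.07 in MaP -/- tumors. The groups overlapped, and the log2 fold change of MaP R172H/- against MaP -/- tumors was 0.73 ± 0.659 (edgeR adjusted p = 0.527), or 0.14 without YZ11. Oasl2 ranged from 39.66 CPM over 200.1 to 542.4, was 28.75, 52.2, 64.69, 21.88 and 201.1 in the MaP R245W/- tumors in the same order, and ranged from 47.33 over 122.2 to 309.8 in MaP -/- tumors. JM1233 and JM1126 were below all other tumors for Oasl2. Its log2 fold change was 1.58 ± 0.644 between the mutants and -0.96 ± 0.617 in MaP R245W/- against MaP -/- tumors (edgeR adjusted p = 0.13 and 0.551). Without the 3 tumors in doubt these were 0.86 and -0.63. Without JM1133 they were 2.39 and -1.77, and without JM663-T1 the difference from MaP -/- tumors was -0.58.

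Isg15, a ubiquitin-like modifier, ranged from 11.93 CPM over a median of 32.5 to 67.94 in MaP R172H/- tumors and from 16.71 over 26.6 to 89.63 in MaP -/- tumors. It was 7.642 in JM1233, 12.8 in JM1564, 26.44 in RM0014, 6.588 in JM1126 and 101.4 in JM1133. The MaP R245W/- group thus held the highest tumor and the lowest tumors at once. Usp18, which removes Isg15 from proteins and damps the interferon receptor, and Herc6, an Isg15 ligase, overlapped between all groups. The median log2 fold change of these 3 genes was 0.06, -0.39 and 0.2 in the 3 comparisons, in the order given for the IFIT genes. These medians too were taken with all tumors only.

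The Mx proteins trap viral nucleoprotein and the guanylate-binding proteins attack the membranes of intracellular microbes. Mx2 ranged from 5.414 CPM over a median of 33.16 to 89.33 in MaP R172H/- tumors. It was 6.329 in JM1233, 16.97 in JM1564, 17.09 in RM0014, 5.597 in JM1126 and 58.64 in JM1133, and ranged from 15.16 over 40.43 to 110.7 in MaP -/- tumors. The groups overlapped, with YZ7, JM1126 and JM1233 lowest. Its log2 fold change was -0.27 ± 0.529 in MaP R172H/- and -1.24 ± 0.653 in MaP R245W/- against MaP -/- tumors (edgeR, Benjamini-Hochberg adjusted p = 0.792 and 0.473). Without the 3 tumors in doubt these were -0.42 and -0.85. Without JM1133 the MaP R245W/- difference was -2.09. The MaP R172H/- difference was -0.61 without YZ6 and 0.14 without JM663-T1. Gbp2 was 238.2 CPM in JM1233, 18.02 in JM1564, 151.4 in RM0014, 22.1 in JM1126 and 271.0 in JM1133. It ranged from 63.65 over 182.1 to 640.1 in MaP R172H/- tumors and from 52.32 over 162.8 to 382.6 in MaP -/- tumors. JM1233, among the lowest tumors for IFIT and OAS genes, was among the higher ones for Gbp2.

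Irf1, a transcription factor with GAS letters upstream of its start, had the narrowest range of any member, 1.71 on the log2 scale over the 18 tumors. It ranged from 66.73 CPM over 96.33 to 168.4 in MaP R172H/- tumors and from 76.49 over 99.92 to 143.2 in MaP -/- tumors. It was 204.6 in JM1233, 77.58 in JM1564, 70.22 in RM0014, 62.62 in JM1126 and 142.1 in JM1133. JM1233 had the highest Irf1 of all tumors while its score was the third lowest. Irf7, the factor that amplifies interferon production, ranged from 20.47 CPM in YZ7 over 213.1 to 568.2 in YZ11, and from 52.89 over 129.1 to 388.7 in MaP -/- tumors. It was 25.17, 111.1, 128.4, 39.18 and 481.8 in JM1233, JM1564, RM0014, JM1126 and JM1133. YZ7, JM1233 and JM1126 were below all other tumors, and the log2 fold change of MaP R172H/- against MaP -/- tumors was 0.83 ± 0.604 (edgeR adjusted p = 0.418), or 0.53 without YZ11 and 1.34 without JM663-T1. Irf9 and Stat2, which act at the ISRE, also overlapped between all groups.

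Among the sensors, Zbp1 binds Z-form nucleic acid and Ifih1 and Dhx58 bind double-stranded RNA, while Eif2ak2 is the kinase PKR. Zbp1 ranged from 17.47 CPM in YZ7 over a median of 65.26 to 250.0 in YZ11, and from 28.74 over 41.43 to 111.6 in MaP -/- tumors. It was 19.88 in JM1233, 25.13 in JM1564, 42.49 in RM0014, 10.43 in JM1126 and 99.69 in JM1133. The groups overlapped, and the log2 fold change between the mutants was 1.13 ± 0.633 (edgeR, Benjamini-Hochberg adjusted p = 0.272), or 0.59 without YZ11, 1.82 without JM1133 and 0.40 without the 3 tumors in doubt. Over the 4 sensors the median log2 fold change was 0.46 in MaP R172H/- against MaP -/-, -0.28 in MaP R245W/- against MaP -/- and 0.71 between the mutants. YZ11 was the highest tumor of its group for all 4, and these medians were not computed without it.

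The other effectors were less uniform. Isg20, an exonuclease, ranged from 4.534 CPM over 17.98 to 47.45 in MaP R172H/- tumors and from 6.134 over 8.665 to 20.3 in MaP -/- tumors, and was 12.27, 4.976, 8.516, 13.66 and 18.59 in JM1233, JM1564, RM0014, JM1126 and JM1133. The groups overlapped, with YZ11 alone above 40 CPM, and the log2 fold changes against MaP -/- tumors were 0.84 ± 0.452 in MaP R172H/- and 0.05 ± 0.407 in MaP R245W/- tumors (edgeR adjusted p = 0.27 and 0.969). Without YZ11 the first was 0.44. Under 8 other settings the second ran from 0.02 to 0.19. Rsad2, the antiviral enzyme viperin, ranged from 6.779 CPM over 70.22 to 192.3 in MaP R172H/- and from 53.4 over 85.83 to 230.1 in MaP -/- tumors, and was 12.27, 42.0, 50.81, 30.8 and 235.3 in the MaP R245W/- tumors in the same order. Apart from JM1133, every MaP R245W/- tumor was below every MaP -/- tumor for Rsad2, and its log2 fold change of MaP R172H/- against MaP -/- tumors was -0.51 ± 0.607 (edgeR adjusted p = 0.64), or -0.94 without YZ11 and -0.19 without JM663-T1.

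Bst2 (tetherin), which holds budding virus at the cell surface, ranged from 37.47 CPM in YZ4 over 117.9 to 291.8 in MaP R172H/- tumors and from 49.23 over 92.94 to 236.5 in MaP -/- tumors. It was 16.27 in JM1233, 72.32 in JM1564, 110.4 in RM0014, 14.97 in JM1126 and 404.1 in JM1133, so that the MaP R245W/- group spanned the whole range. Its log2 fold change against MaP -/- tumors was 0.09 ± 0.764 (edgeR adjusted p = 0.97), or 0.51 without JM1233 and RM0014. Trim30a, a regulator of innate signalling, ranged from 20.07 CPM over 77.18 to 203.8 in MaP R172H/- and from 55.21 over 100.9 to 190.3 in MaP -/- tumors, and was 55.05, 22.66, 56.75, 42.95 and 103.6 in JM1233, JM1564, RM0014, JM1126 and JM1133. The groups overlapped, and the log2 fold changes against MaP -/- tumors were -0.21 ± 0.468 in MaP R172H/- and -0.94 ± 0.392 in MaP R245W/- tumors (edgeR adjusted p = 0.819 and 0.389). Without YZ11 the first was -0.56. Per kilobase of exon, the median level over the 18 tumors was highest for Ifitm3, which blocks the entry of enveloped viruses (158 CPM per kb), followed by Bst2 (76.6) and Gbp2 (65.1), and it was lowest for Ifi44l (0.433).

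Ifi27l2a, a small hydrophobic protein, had the most negative log2 fold change of the members in MaP R172H/- against MaP -/- tumors. It ranged from 5.942 CPM in YZ7 over a median of 25.54 to 49.91 in YZ10 among them, and from 23.9 over 50.69 to 298.5 in JM833-T1 among the MaP -/- tumors. It was 20.06 in JM1233, 29.08 in JM1564, 16.14 in RM0014, 14.04 in JM1126 and 67.54 in JM1133. Both mutant groups overlapped with the MaP -/- tumors, and JM833-T1 stood far above every other tumor. The log2 fold change against MaP -/- tumors was -1.65 ± 0.63 in MaP R172H/- tumors (edgeR, Benjamini-Hochberg adjusted p = 0.122) and -1.59 ± 0.719 in MaP R245W/- tumors (adjusted p = 0.419), and between the mutants it was -0.11 ± 0.632 (adjusted p = 0.937). Without JM833-T1 the differences from MaP -/- tumors were -0.7 in MaP R172H/- and -0.64 in MaP R245W/- tumors. Under 8 other settings the difference between the mutants ran from -0.36 to -0.06. JM833-T1 also had the highest summed level of 6 adipocyte markers, 4170 CPM, and the part of this in the Ifi27l2a level was not tested.

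Ifi44l stood apart from the set and from its neighbour and relative Ifi44. The pair lies on the minus strand of chromosome 3, Ifi44 at GRCm39 chr3:151436559-151455625 and Ifi44l at chr3:151464374-151468529. The MaP -/- tumors held 0, 2, 0, 3, 4 and 0 reads of Ifi44l (JM836-T1, JM663-T1, JM663-T2, JM833-T1, JM833-T2, JM779-T1). The MaP R245W/- tumors held 180 in JM1233, 285 in JM1564, 332 in RM0014, 124 in JM1126 and 1235 in JM1133, which is 5.373, 8.809, 9.52, 3.966 and 47.15 CPM. The lowest MaP R245W/- tumor was 29.4 times the highest MaP -/- tumor, which was at 0.135 CPM, and the 3 MaP R245W/- tumors other than JM1233 and RM0014 were above it as well. The MaP R172H/- tumors divided, with 74 reads in YZ2, 188 in YZ4, 179 in YZ6 and 24 in YZ7 but 3 in YZ3, 0 in YZ10 and 3 in YZ11. A MaP -/- tumor with 0 reads allows a level of up to 3 reads, between 0.0923 and 0.113 CPM over that group's libraries, and this covers counting error only.

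Ifi44 did not share this pattern. It ranged from 9.288 CPM in YZ7 over a median of 107.0 to 310.6 in YZ11 among MaP R172H/- tumors and from 24.5 over 63.57 to 231.2 among MaP -/- tumors. It was 16.66 in JM1233, 49.82 in JM1564, 76.76 in RM0014, 17.05 in JM1126 and 376.5 in JM1133, so the groups overlapped. Its log2 fold change of MaP R245W/- against MaP -/- tumors was 0.26 ± 0.823 (edgeR adjusted p = 0.917), or 0.73 without JM1233 and RM0014. Ifi44l made up between 11% and 24.4% of the reads of the pair in the MaP R245W/- tumors and at most 0.315% in the MaP -/- tumors. JM663-T1 had 231.2 CPM of Ifi44 with 2 reads of Ifi44l, while JM1233 had 16.66 CPM of Ifi44 with 180 reads of Ifi44l. Genotype accounted for 68.0% of the variance of Ifi44l on the log2 scale, the most of any member.

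**Figure D3:**
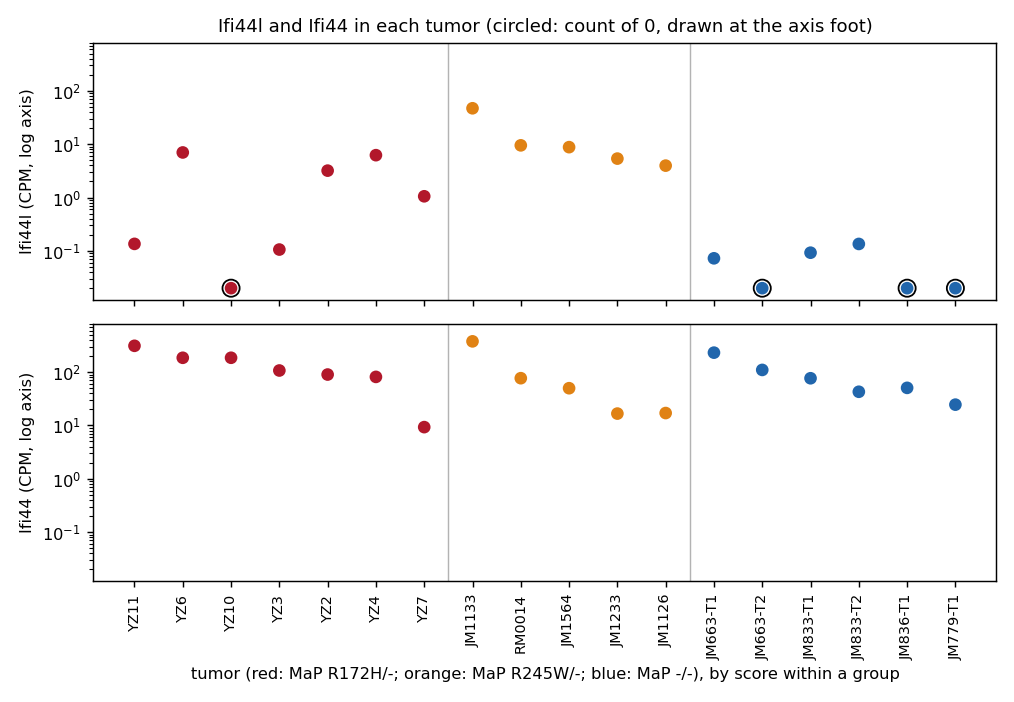
Ifi44l (upper panel) and Ifi44 (lower panel) level (CPM, log axis) in each of the 18 tumors, ordered by genotype and by score within a genotype, with counts of 0 circled at the foot of the axis. All 5 MaP R245W/- tumors lie above 3.9 CPM of Ifi44l and all 6 MaP -/- tumors at or below 0.135 CPM, at overlapping levels of Ifi44, and the MaP R172H/- tumors lie in both ranges.

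In MaP R245W/- against MaP -/- tumors Ifi44l ranked first by p among all 21452 genes tested, but its adjusted p was 0.139 (edgeR quasi-likelihood test, Benjamini-Hochberg) and no gene passed the adjusted threshold in the comparison. With at most 4 reads in any MaP -/- tumor, Ifi44l passed the filter on low counts through the MaP R245W/- tumors alone. Its rank is therefore that of a gene tested because this group was high. DESeq2's Wald test gave an adjusted p of 7.13e-15 for the same contrast. The fitted log2 fold change (8.09 ± 1.05 in edgeR) depends on the prior count because the MaP -/- tumors are near 0, and it is no bound. It was the only member whose groups did not overlap in any of the 3 comparisons, and in that contrast 1.32% of the genes tested had groups that did not overlap. In the other contrasts 0 members had groups that did not overlap, against 4.62% of all genes in MaP R172H/- against MaP -/- tumors and 5.83% between the mutants. For MaP R172H/- against MaP -/- tumors Ifi44l was removed by the filter on low counts. DESeq2, which does not use that filter, gave an adjusted p of 0.000215 there, and edgeR without the filter gave 0.0349 (2.84% of all genes called). An adjusted p of 0.0152 came from edgeR with all 18 tumors in 1 fit (7.78% called). In that fit Ifi44l passed the filter only with the MaP R245W/- tumors added, so it was tested there because that group was high. Only 4 MaP R172H/- tumors held over 10 reads. With the tumors of 1 mouse summed the call was lost (edgeR adjusted p = 0.0761). Between the mutants its log2 fold change was -2.56 ± 1.05 (edgeR adjusted p = 0.131), or -1.45 without JM1133, with overlapping groups.

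The set was then read across each comparison. Of 35 members tested in MaP R172H/- against MaP -/- tumors, 0 were called at an adjusted p below 0.05, against 8.4% of all 20954 genes tested (edgeR's quasi-likelihood test). At an unadjusted p below 0.05 there was 1 member, Ifi27l2a, against 24.7% of all genes, and DESeq2 called 1, Ifi44l (7.86% of all genes). The log2 fold change was above 0 for 29 of 35 members and below 0 for 6, against 49.8% of all genes below 0, with a median of 0.38 against 0.0 over all genes. This median depended on the library labelled YZ11, without which it was -0.04 and 19 of 35 members were below 0. Without JM663-T1 it was 0.68.

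Of 36 members tested in MaP R245W/- against MaP -/- tumors, 0 were called in edgeR's test, and the share over all 21452 genes was 0%. At an unadjusted p below 0.05 there were 4 members (Ifi44l, Oas2, Trim30a and Ifi27l2a) against 11.8% of all genes, and DESeq2 called 1, Ifi44l (1.01% of all genes). The log2 fold change was below 0 for 30 of 36 members, against 48.2% of all genes, with a median of -0.36 against 0.02 over all genes. The size of this difference depended on JM1133. Without it the median was -1.22, 35 of 36 members were below 0 and 21 had an unadjusted p below 0.05, though 0 were called in edgeR's test. Without JM663-T1 the median was 0.0 and 18 members were below 0.

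Of 36 members tested between MaP R172H/- and MaP R245W/- tumors, 0 were called in edgeR's test, against 9.4% of all 22481 genes. At an unadjusted p below 0.05 there were 3 members (Oas2, Oasl2 and Ifi44l) against 25.9% of all genes, and DESeq2 called 1, Oas2 (log2 fold change 2.13, adjusted p = 0.0197, with 8.21% of all genes called). The log2 fold change was below 0 for 2 of 36 members, Ifi44l and Ifi27l2a, against 49.8% of all genes, with a median of 0.65 against 0.0 over all genes. Without JM1133 the median was 1.48 and 4 members passed the edgeR threshold, with Oas2 at 3.01 (Benjamini-Hochberg adjusted p = 0.0242), Oasl2 at 2.39 (0.0332), Stat2 at 1.75 (0.041) and Xaf1, a pro-apoptotic interferon target, at 1.84 (0.0268), against 7.54% of all genes. Without YZ7, Oas2 alone passed, at 2.31 (edgeR adjusted p = 0.0436), against 10.6% of all genes, and without YZ11 the median was 0.28.

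**Figure D4:**
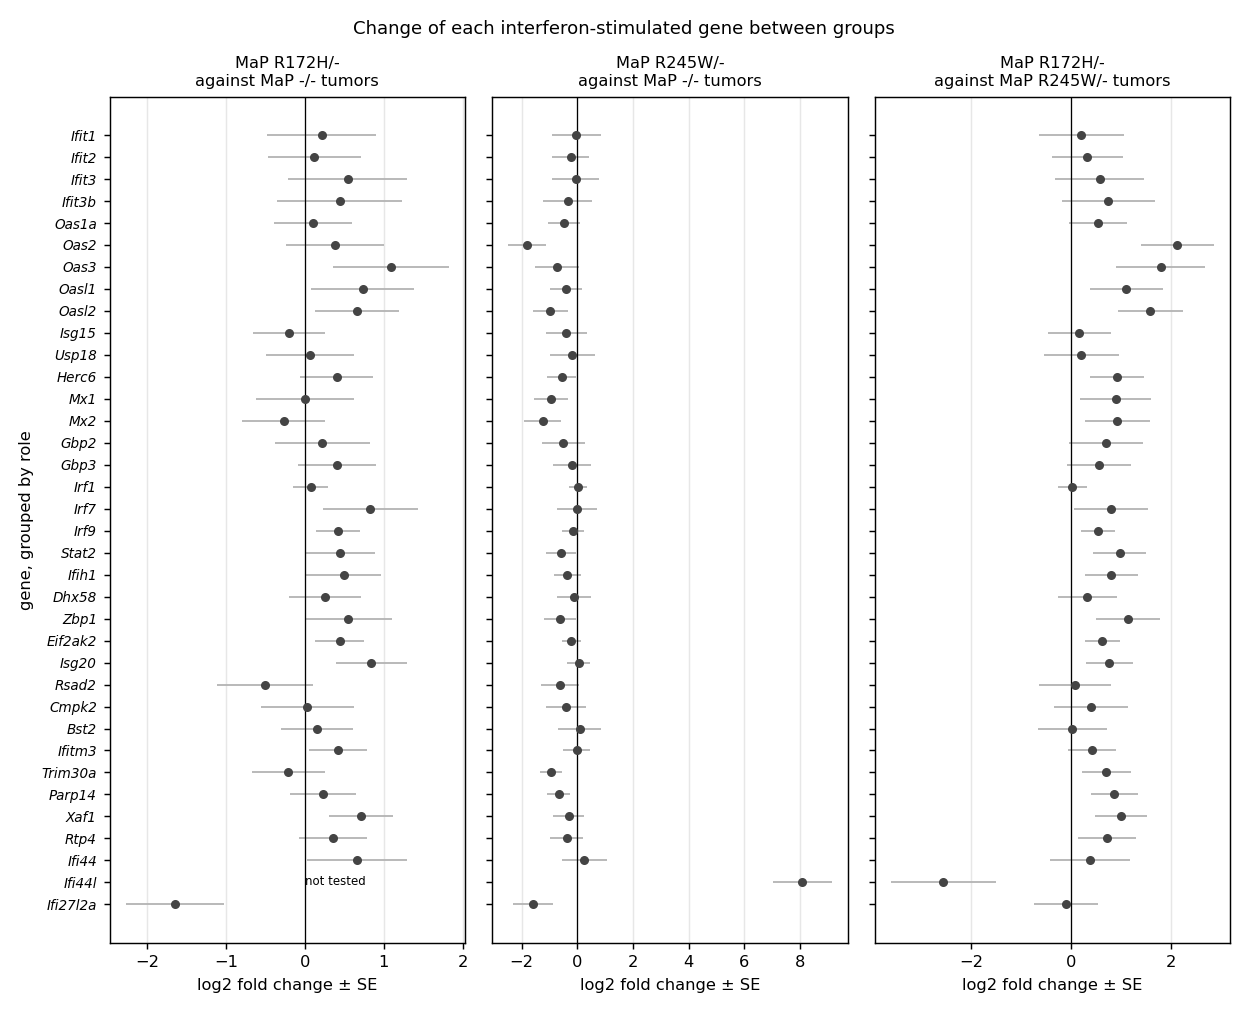
Log2 fold changes with SE of the 36 members in the 3 comparisons, by role, each panel on its own horizontal scale. None passed the adjusted threshold in edgeR's test, and the medians over the members tested are 0.38, -0.36 and 0.65.

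When the 3 mutant tumors with Trp53 in or below the MaP -/- range (YZ11, JM1233 and RM0014) were left out, the score differences were -0.07, -0.36 and 0.29 in the 3 comparisons. The members' median log2 fold changes were then -0.04, -0.02 and 0.15, with 19 of 35, 21 of 36 and 16 of 36 members below 0, and 0 were called in any of them by edgeR. With the tumors of 1 mouse summed, the medians were 0.57, -0.15 and 0.68.

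**Figure D5:**
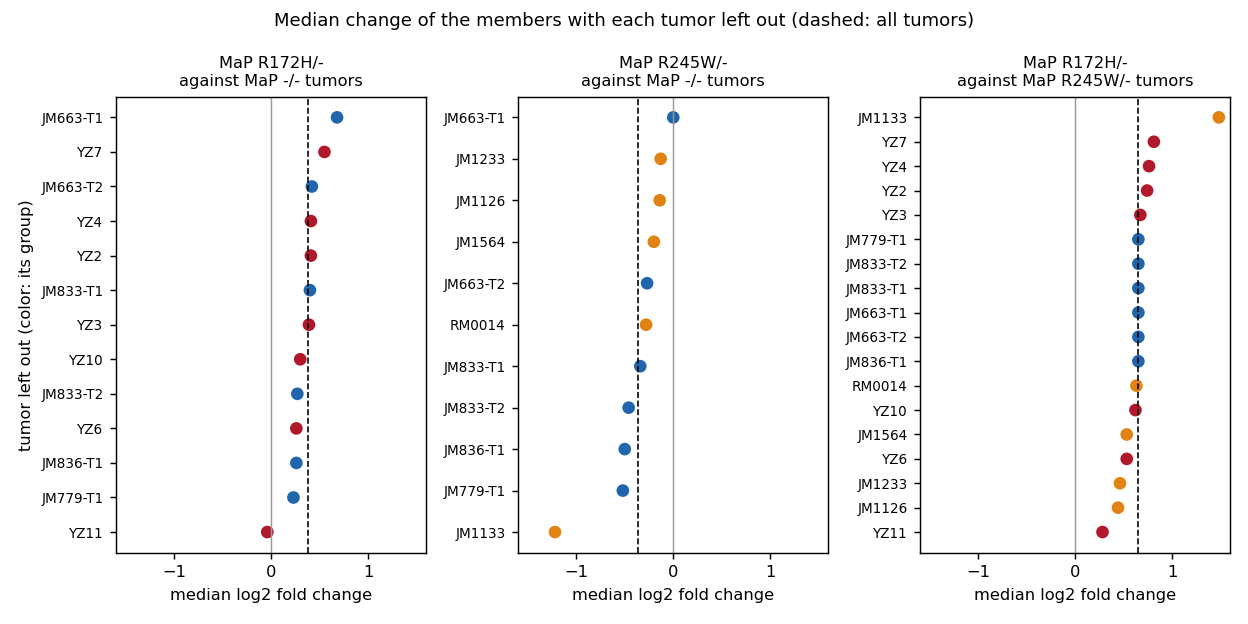
Median log2 fold change of the members in each comparison when each tumor is left out in turn, beside the value with all tumors. The medians run from -0.04 to 0.68 in MaP R172H/- against MaP -/-, from -1.22 to 0.0 in MaP R245W/- against MaP -/- and from 0.28 to 1.48 between the mutants, with YZ11, JM1133 and JM663-T1 moving them most.

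Markers of the cells in the tumors were set beside the score. The mean centred level of 10 epithelial markers had a Pearson correlation of 0.57 with the score over the 18 tumors, and of 0.52 over 16 tumors without JM1233 and JM779-T1. These 16 still held YZ7, whose marker level was also low (-2.59, against -3.1 in JM1233 and -4.01 in JM779-T1) and whose score was the lowest. The correlation without YZ7 was not computed. The summed level of the epithelial markers was 9560 CPM in YZ11 and 384.7 in YZ7, the ends of the score. It was also low in JM1233 (494.5) and JM779-T1 (156.8), with 1 of the 10 markers at 0 in JM1233 and none at 0 elsewhere. It was 4253 in JM1126 and 4210 in JM1133, tumors far apart in score. The correlation of 8 pan-leukocyte markers with the score was -0.26, and -0.06 without JM1126 and JM833-T2. Within groups it was 0.77 in the 7 MaP R172H/- tumors, -0.59 in the 5 MaP R245W/- tumors and -0.5 in the 6 MaP -/- tumors. For 10 macrophage markers it was 0.86, -0.55 and -0.81. YZ7, the lowest in score, also had the lowest summed level of both marker sets in the MaP R172H/- group (334.1 and 1108 CPM). The part of YZ7 in the positive values was not tested. Among the MaP R245W/- tumors, JM1126 and JM1233 had the highest pan-leukocyte levels (1864 and 1296 CPM) and the lowest scores. Their summed level was between 334.1 and 831.2 CPM in MaP R172H/-, 611.1 and 1864 in MaP R245W/- and 706.6 and 1659 in MaP -/- tumors, with none of the 8 at 0 in any tumor. In MaP R172H/- against MaP -/- tumors, 3 of the 8 (Ptprc, Cd53 and Cd48) were lower (edgeR), where 8.4% of all genes were called. Also lower were 2 of 10 macrophage, 1 of 11 T and NK cell (Ncr1), 3 of 5 neutrophil, 2 of 6 fibroblast and 2 of 6 endothelial markers tested. Between the mutants all 5 skeletal muscle markers tested were lower in MaP R172H/- tumors (edgeR), where 9.4% of all genes were called. The summed level of the 8 skeletal muscle markers listed reached 989.9 CPM in JM1233. The 6 fibroblast markers reached 29070 CPM in JM1126 and 13480 in JM1233, whose scores were among the lowest 3. The correlation of the fibroblast markers with the score was -0.37, and 0.01 without these 2 tumors. With the pan-leukocyte level as a covariate the members' medians were 0.18, -0.66 and 0.37 and 0 were called by edgeR. The part of other cell types in the differences was otherwise not tested.

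Of 53 further genes of the interferon pathway, 33 were tested. Of the 20 interferon ligands listed, only Ifnk passed the filter on low counts, and Ifnb1 held at most 24 reads, Ifng at most 5 and any Ifna gene at most 13 in a tumor. In MaP R172H/- against MaP -/- tumors 2 of 33 rose and 1 fell, a share close to the 8.4% of all genes called. Irf3, the factor that starts interferon transcription, had median levels of 69.9 CPM in MaP R172H/-, 55.3 in MaP R245W/- and 37.1 in MaP -/- tumors and rose by 0.90 ± 0.164 on the log2 scale (edgeR, Benjamini-Hochberg adjusted p = 0.00518). Ticam1, the adaptor of Tlr3, rose by 0.64 ± 0.15 (medians 13.1, 9.94 and 8.99 CPM, edgeR adjusted p = 0.0189). Tlr7, an endosomal receptor for single-stranded RNA, fell by 0.84 ± 0.239 (medians 13.8, 12.1 and 24.9 CPM, edgeR adjusted p = 0.0459). In MaP R245W/- against MaP -/- tumors 0 of 33 were called by edgeR, with 2 at an unadjusted p below 0.05, against 0% and 11.8% of all genes. Between the mutants only Il10rb, a chain of the type III interferon receptor, was called, higher in MaP R172H/- tumors by 1.0 ± 0.274 (medians 2.8 and 1.84 CPM, edgeR adjusted p = 0.028). The share of all genes called there was 9.4%.

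Among 22445 other genes, 30 had a correlation above 0.9 with the score when both were centred within genotype (n = 18, median over all genes -0.01). The 10 closest were Oas1g (0.983), Phf11d (0.974), Apol9a (0.967), Iigp1c (0.959), Igtp (0.955), Helz2 (0.954), Apol9b (0.953), Trim25 (0.95), Znfx1 (0.949) and Rnf213 (0.947). In a second list of 39 interferon-induced genes, 0 were called in each comparison by edgeR, against 8.4%, 0% and 9.4% of all genes tested. At an unadjusted p below 0.05 there were 2, 1 and 0, against 24.7%, 11.8% and 25.9% of all genes. The median log2 fold changes were 0.28, -0.31 and 0.55.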

How the data were processed

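Total RNA of 18 mammary tumors was depleted of ribosomal RNA and sequenced in pairs. After quality checks with FastQC 0.11.9 the authors mapped reads to GRCm39 (STAR 2.7.10b), estimated gene levels with RSEM 1.3.3 and the GENCODE annotation, and deposited whole-number counts per gene with no normalization. RSEM divides reads shared by near-identical genes, which affects paralogs. Groups came from the sample labels.

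From the deposited counts, the mutant groups were fitted separately against MaP -/- tumors, and the mutants were compared in a fit of all 18 tumors, with edgeR 4.0.16 in R 4.3.3 (TMM, filterByExpr, quasi-likelihood test over all genes, Benjamini-Hochberg adjusted p below 0.05). Instrument was no covariate, because it follows genotype. Members and lists were chosen with earlier results of these data known. Where no member was called, the 4 largest rises and 4 largest falls per comparison were named, with the members of widest and narrowest range, the 3 least correlated with the rest, the 10 nearest other genes and called pathway genes. Ifit1, Isg15 and Gbp2, Stat2 and Xaf1, the per-kilobase order, and the printed promoters were chosen after their values were seen. The tests were tested on simulated data. Alternatives were DESeq2 1.42.0, its size factors, other count filters, fold change thresholds, other prior counts, tumors of 1 mouse summed, 1 fit with 18 tumors, a pan-leukocyte covariate and each tumor left out. Chosen after seeing the data were leaving out 3 tumors by Trp53 level and the score without Ifi44l. Python 3.11.15, pandas 2.3.3 and matplotlib 3.10.9 were used for the rest.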

Additional observations from a re-analysis of the deposited data

Results flagged for a closer look

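In each group of 5 to 7 tumors, the highest and lowest log2 CPM of each of the 36 members, and the highest and lowest score, were compared with their nearest neighbour by Dixon's ratio. Of 111 checks, 7 (6.31%) passed the critical value, which a single check passes by chance about 1 time in 20, and all lay in 2 tumors. The checks are not independent, because the members varied together in the same tumors, so this share is no test.

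In the MaP R172H/- group, YZ7 was far below the other 6 tumors for 4 members. Irf7 was at 4.36 in YZ7 with the next lowest tumor at 7.16, and Irf9 at 5.46 with the next at 6.56. Ifih1 was at 4.48 with the next at 6.81, and Ifi44 at 3.23 with the next at 6.34. The epithelial marker level was 384.7 CPM in YZ7, the lowest of its group, and its part in these values was not tested.

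In the MaP R245W/- group, JM1133 was far above the other 4 tumors for 3 members. Stat2 was at 7.68 with the next highest tumor at 5.85, Ifih1 at 7.88 with the next at 6.17, and Eif2ak2 at 7.62 with the next at 6.46.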

How the results depend on the processing

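The number of members called was 0 in each comparison and changed under few settings. It was 1 with DESeq2 in all 3 comparisons, and 1 in MaP R172H/- against MaP -/- tumors with no filter on low counts and with all 18 tumors in 1 fit, Ifi44l in each case but the direct comparison of the mutants, where it was Oas2. With each tumor left out in turn it ran from 0 to 4 between the mutants and stayed at 0 in the other comparisons. The score differences ran from -0.07 to 0.5 (MaP R172H/- against MaP -/-), from -1.04 to -0.27 (MaP R245W/- against MaP -/-) and from 0.43 to 1.21 (between the mutants) with each tumor left out, and each shift was smaller than the spread between tumors. Of the named members' values, 283 of 300 with a tumor left out and 169 of 174 under other settings kept their direction and their side of the threshold. With a pan-leukocyte covariate the log2 fold change turned for Trim30a in MaP R172H/- against MaP -/- tumors (0.00), and in MaP R245W/- against MaP -/- tumors for Ifi44 (-0.28) and Bst2 (-0.59). With each tumor left out, it ran from -0.56 to 0.02 for Trim30a and from -0.61 to 0.14 for Mx2 in MaP R172H/- against MaP -/- tumors. It ran from -1.16 to 0.81 for Ifi44, from -1.11 to 0.43 for Bst2 and from -0.18 to 0.31 for Isg20 in MaP R245W/- against MaP -/- tumors, and from -0.32 to 0.46 for Ifi27l2a between the mutants. The cause was not tested. No paired analysis was possible because the replicate numbers follow sample order and the groups share no animals. Depth limits Ifi44l, whose MaP -/- tumors hold at most 4 reads each.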
